A study of Homo sapiens with 10 samples.

Results

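Lysosomes are the acidic compartments in which cells take apart proteins, sugars, lipids and worn-out organelles. Soluble hydrolases do the cutting, small activator proteins hand lipids to them, a proton pump keeps the lumen acidic, and heavily glycosylated membrane proteins line and connect the compartment. In myeloid cells, the supply of lysosomal enzymes is known to grow as progenitors mature toward macrophages, and the transcription factor TFEB is known to switch on many lysosomal genes through a short promoter motif. The genes described here were 40 lysosomal hydrolases, activators, membrane proteins, pump subunits and regulators, chosen by symbol with earlier results of these data known. Of the 40 genes, 36 were measured among 17687 named genes, and GLB1, NEU1, ACP5 and NPC2 were not analysed here.

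RNA was measured on 10 single-colour arrays, 1 for each condition. OR21 (OR-2100, described by the series as a hypomethylating agent) was given for 96 hours at 500 nM to HL60, an acute myeloid leukaemia line, and K562, a chronic myeloid leukaemia line, and at 100 nM to MDSL and SKM1, lines from myelodysplastic syndrome. An AZA resistant and an OR21 resistant derivative of HL60 were also measured, and no dose is listed for them. The time of 96 hours is listed for all 10 arrays. The references were the untreated control of each line, that of HL60 being called parental. Each line or derivative was 1 culture on 1 array as far as the labels say, so single comparisons have no replicate check, and across the series the 4 lines are the only replicates. Dose and disease label go together and cannot be told apart.

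All levels below are log2 intensities of 1 probe set per gene, so a level is compared between arrays and not between genes, and a difference of 1 is a 2-fold change. The arrays had gene medians of 6.63 to 7.05. Hybridisation spikes, which are control probe sets, averaged 11.71 on the OR21-treated HL60 array and 10.85 to 11.10 on the other 9. PolyA spikes, a further set of control probe sets, averaged 8.06 on that array and 6.86 to 7.51 on the other 9. Background probes had a median of 4.98 on the MDSL control array and 5.41 to 5.43 elsewhere. On each array 31 to 35 of the 36 members lay above it, and 11430 to 13085 of the 17687 genes. The shares of all genes given below therefore include more dim genes than the members do. The lines carried their known markers: control K562 cells had the embryonic globin HBE1 at 13.59 and control SKM1, MDSL and HL60 cells had it at 5.83 or less, while MPO, a primary granule enzyme, was at 17.01 and 17.08 in control HL60 and SKM1 cells and at 8.62 and 6.23 in control MDSL and K562 cells. CD34, a progenitor marker, stood at 14.68 in control MDSL cells and at 5.58 or less in the other controls. In bulk RNA, more cells of a mature type and more RNA per cell cannot be told apart.

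Promoter sequences of a few members are shown because hypomethylating agents act on CG sites and because TFEB reads a defined motif. RefSeq windows (GRCh38.p14) running from 250 bases before to 50 bases after the start were found for 25 of the 36 measured members. CTSH and GPNMB, the members with the largest HL60 differences, differ sharply in CG content, as their 200 bases before the start show, CG sites in capitals. CTSH is at chr15:78945047-78945246 on the minus strand and GPNMB at chr7:23246575-23246774 on the plus strand.
CTSH: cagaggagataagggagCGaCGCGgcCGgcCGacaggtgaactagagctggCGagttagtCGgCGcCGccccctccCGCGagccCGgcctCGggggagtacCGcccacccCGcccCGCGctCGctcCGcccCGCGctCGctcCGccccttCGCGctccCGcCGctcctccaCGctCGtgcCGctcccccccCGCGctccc
GPNMB: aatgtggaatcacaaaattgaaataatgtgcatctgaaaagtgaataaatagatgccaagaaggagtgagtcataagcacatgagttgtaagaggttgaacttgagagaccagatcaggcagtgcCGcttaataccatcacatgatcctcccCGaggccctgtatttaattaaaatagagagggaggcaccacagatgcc
The CTSH stretch holds 32 CG sites and the GPNMB stretch 2. Over the whole window CTSH has 37 CG sites, more than 88.7% of the 35116 RefSeq windows, and GPNMB has 3, more than 18.2% of them. DNA methylation was not measured on these arrays.

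A motif that TFEB and its relatives read has the core CACGTG, and its longer forms are GTCACGTG and, on the other strand, CACGTGAC. The 80 bases before the start are shown for 4 of the 7 members that hold it, those with the highest mean OR21 differences, with the core and any longer match in capitals. MCOLN1 is at chr19:7522544-7522623 (plus strand), CTSD at chr11:1763928-1764007 (minus), CTSA at chr20:45891255-45891334 (plus) and ATP6V0D1 at chr16:67481158-67481237 (minus).
MCOLN1: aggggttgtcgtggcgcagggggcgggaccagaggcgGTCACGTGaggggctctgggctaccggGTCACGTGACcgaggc
CTSD: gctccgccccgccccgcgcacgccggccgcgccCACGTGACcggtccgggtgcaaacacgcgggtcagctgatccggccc
CTSA: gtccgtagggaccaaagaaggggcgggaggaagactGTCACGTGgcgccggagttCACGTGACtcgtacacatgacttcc
ATP6V0D1: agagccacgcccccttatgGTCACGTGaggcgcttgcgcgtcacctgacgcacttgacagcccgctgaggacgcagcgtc
MCOLN1 and CTSA hold the core at 2 places each, and CTSD and ATP6V0D1 at 1. Among the 25 measured members with a window, 7 held CACGTG (28%), namely these 4 with LAMP1, CLN3 and GAA, against 8.77% of the 27305 genes with a window. The same 7 held a longer form, GTCACGTG on either strand, which 2.93% of all genes held. The full palindrome that joins both longer forms, called the CLEAR consensus, stood in 0.353% of the windows and among members in GAA and MCOLN1. Members with the core had a median OR21 difference of 0.49 (7 genes) and those without it 0.23 (18 genes). The 11 measured members with no window are in neither group, and the median of all 36 was 0.38. The contrast was not tested. The mean differences of the 3 not printed were near 0, at -0.08 for LAMP1, which holds 6 cores, 0.02 for CLN3 and 0.06 for GAA. A match describes the letters only and is no evidence of binding. Only these forms were searched for, so a window without them may hold other sites of this family.

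The first question was whether lysosomal genes changed with OR21 across the 4 lines. By the mean of the lines, 29 of 36 members were higher (80.6%, where 47.6% of all genes were) and 7 lower (52.4% of all genes). The median difference was 0.38, against -0.02 over all genes. Proteases stood highest, with a median of 1.21 over 10 genes, while the 7 glycosidases had a median of 0.08. No member passed the test: limma with the line as a block called 0 of 36 at an adjusted p under 0.05, where it called 0.0396% of all genes (7 genes, all higher). At an unadjusted p under 0.05 there were 10 members higher, where 8.98% of all genes were called higher, and 1 lower, where 10.1% were called lower.

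The sign of the difference was then counted line by line. OR21-treated cells exceeded their control in 4 of 4 lines for 12 members, or 33.3%, where 12.2% of all genes did so. These were CTSB, CTSD, CTSH, CTSL, LGMN, TPP1, ASAH1, ARSA, PSAP, GRN, MCOLN1 and GPNMB. The count includes slight differences, such as LGMN by 0.03 in MDSL and CTSH by 0.08 in K562. ARSA lay at or under background on 8 of 10 arrays. Treated cells were below their control in 4 of 4 lines for PPT1 and CLN6 alone (5.56% of members, 15.3% of all genes). With HL60 left out because of its bright spikes, 12 members were higher in each of the other 3 lines (33.3%, where 17.2% of all genes were) and the median difference was 0.14. Without K562, 19 members were higher in each of the other 3 (52.8%, where 19.5% of all genes were). Scaling each array to its hybridisation spikes would call CTSD higher, by 1.49 (adjusted p = 0.0423), and CLN6 lower, by -1.72 (adjusted p = 0.0207), while calling 171 genes higher and 69 lower in all.

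**Figure D1:**
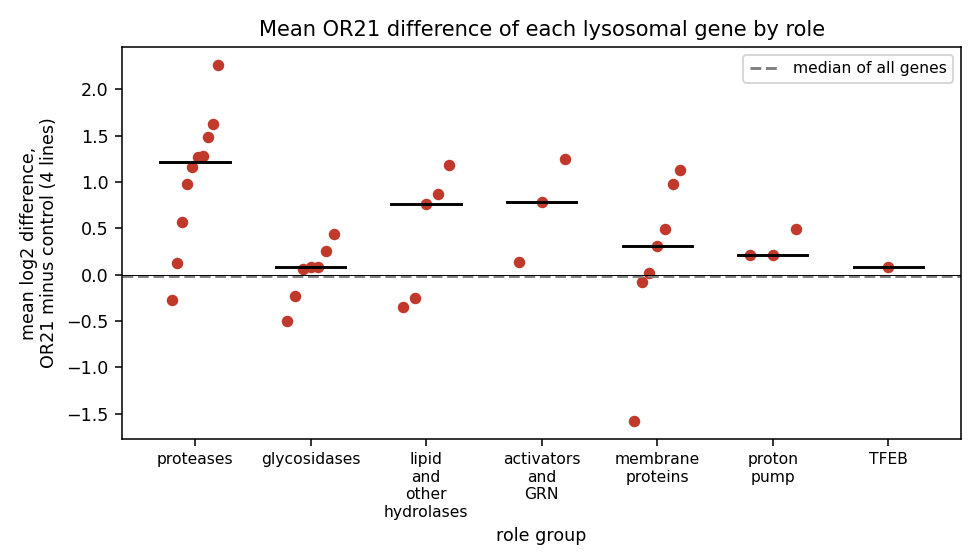
Each point is the mean log2 difference (OR21-treated minus control, 4 lines) of 1 gene, by role on the horizontal axis. Black bars are role medians, 1.21 for proteases and 0.08 for glycosidases, and the dashed line is the median of all genes at -0.02.

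Among the proteases, the aspartic protease CTSD, the main such enzyme of the lysosome, was higher in every line. It had 15.10, 14.12, 12.63 and 10.06 on the OR21-treated arrays of HL60, MDSL, SKM1 and K562, against 12.87, 12.83, 10.36 and 9.33 on their controls. The mean difference was 1.63 ± 0.75 (SD, n = 4 lines), or 3.09-fold, with an adjusted p of 0.115 in limma. K562 had the lowest CTSD on both arrays and the smallest difference, 0.72.

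CTSB, a cysteine protease that also trims peptides from protein ends, had 14.86, 13.87, 14.10 and 13.52 in treated HL60, MDSL, SKM1 and K562 cells, against 12.52, 12.99, 12.98 and 11.94 in controls. Its mean difference was 1.48 ± 0.64 (SD, n = 4 lines, limma adjusted p = 0.115), and all 4 treated arrays lay above all 4 controls. CTSL, a cysteine endopeptidase, had 11.21, 10.07, 9.42 and 12.60 in treated cells in the same line order, against 9.09, 8.80, 8.64 and 11.64 in controls. The difference averaged 1.28 ± 0.59 (SD, n = 4 lines, limma adjusted p = 0.117), and K562 had the highest level both with and without OR21.

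TPP1, which removes tripeptides from protein ends, gave the most even response. It had 10.85, 10.73, 10.96 and 9.87 in treated HL60, MDSL, SKM1 and K562 cells and 9.81, 9.80, 9.97 and 8.93 in controls. The 4 differences lay between 0.94 and 1.04, with a mean of 0.98 ± 0.05 (SD, n = 4 lines), nearly 2-fold, and an adjusted p of 0.104 in limma.

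CTSH, an aminopeptidase of the same papain-like family as CTSB and CTSL, gave the most uneven one. Treated HL60, MDSL, SKM1 and K562 cells had 9.72, 9.75, 10.32 and 11.23, against 3.72, 8.87, 8.24 and 11.15 in controls. The HL60 control lay under its background median of 5.41, so CTSH was at least 19.8-fold higher in treated HL60 cells (at least 4.31 on the log2 scale), while K562 differed by 0.08. Over the lines the mean difference was 2.26 ± 2.62 (SD, n = 4 lines, limma adjusted p = 0.249), 1.84 with the HL60 control set at background and 1.01 without HL60.

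The other proteases separated the lines. CTSA, a serine carboxypeptidase that also shields lysosomal sialidase and beta-galactosidase, had differences of 2.14, 1.27, 1.71 and -0.06 for HL60, MDSL, SKM1 and K562 (limma adjusted p = 0.157). CTSZ, a carboxypeptidase, differed by 3.03, 0.45, 1.63 and -0.47 in the same order, and CTSS, which cuts the invariant chain of class II presentation, by 2.04, -0.19, 1.38 and -0.95. CTSC, which activates granule serine proteases, differed by 0.76, 0.08, -0.70 and -1.21. K562 thus gave the lowest difference of the 4 lines for each of these 4 genes. LGMN, an asparaginyl endopeptidase, stayed between 6.67 and 7.17 in treated cells and 6.53 and 7.08 in controls.

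**Figure D2:**
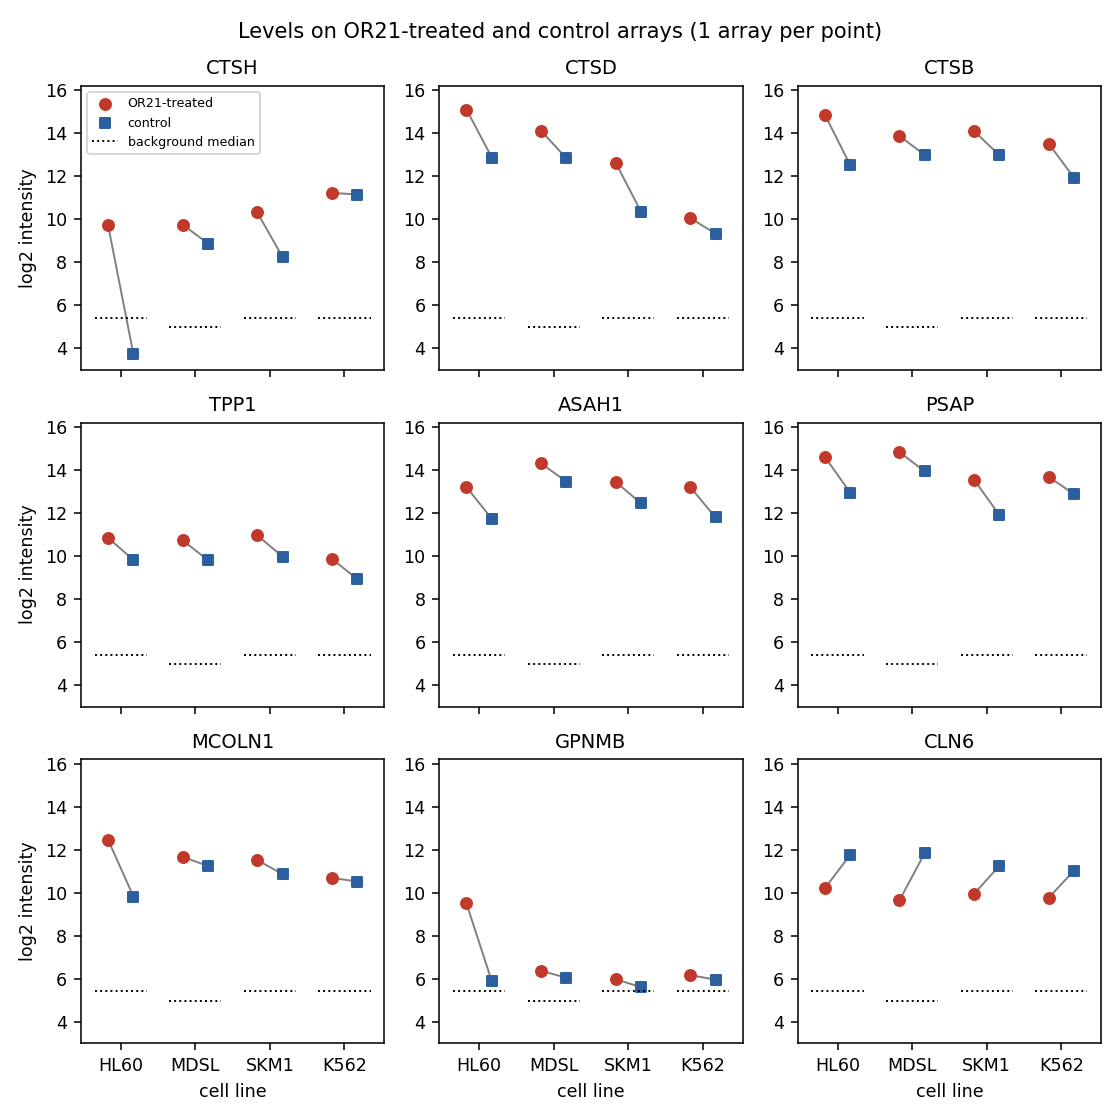
Log2 intensity of 9 lysosomal genes (vertical axis) in 4 cell lines (horizontal axis), with OR21-treated cells as red circles left of control cells as blue squares, 1 array per point, and the background median of each control array as a dotted line. CTSH and GPNMB separate mainly in HL60, TPP1 differs by 0.94 to 1.04 in every line, and CLN6 is lower in every treated line.

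Glycosidases, which trim sugar chains from glycoproteins and glycolipids, were 5 higher and 2 lower by the mean (47.6% and 52.4% of all genes). Of the 7 measured, 0 were higher in 4 of 4 lines (12.2% of all genes) and 0 were lower in 4 of 4 (15.3%). HEXA, a beta-hexosaminidase subunit that breaks down GM2 ganglioside, had 12.94, 14.05, 11.89 and 11.86 in treated HL60, MDSL, SKM1 and K562 cells, against 12.00, 14.24, 11.29 and 11.43 in controls. Its mean difference was 0.44 ± 0.47 (SD, n = 4 lines, limma adjusted p = 0.352), smaller than the spread between lines. GLA, the alpha-galactosidase lacking in Fabry disease, had 10.46, 9.74, 11.45 and 11.05 in treated cells and 11.52, 10.52, 11.86 and 10.83 in controls. GLA was lower in 3 of 4 lines, by -0.50 ± 0.55 on average (SD, n = 4 lines, limma adjusted p = 0.332).

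MAN2B1, a lysosomal alpha-mannosidase, differed by 0.25 ± 0.54 and GUSB, beta-glucuronidase, by -0.23 ± 0.35 (SD, n = 4 lines each). MAN2B1 had 10.29, 11.93, 12.49 and 8.89 in treated HL60, MDSL, SKM1 and K562 cells and 10.59, 12.04, 11.65 and 8.31 in controls, higher in SKM1 and K562 and slightly lower in HL60 and MDSL. GUSB had 10.54, 9.32, 10.17 and 10.47 in treated cells and 10.33, 9.78, 10.72 and 10.58 in controls, lower in all but HL60. GAA, MANBA and NAGLU, which act on glycogen, mannose-linked sugars and heparan sulfate, had mean differences of 0.06 to 0.08, and each turned negative when arrays were centred on their medians.

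Of the 5 measured lipid and other hydrolases, ASAH1, the acid ceramidase, was higher in every line. It had 13.20, 14.30, 13.45 and 13.21 in treated HL60, MDSL, SKM1 and K562 cells, against 11.73, 13.46, 12.45 and 11.79 in controls. The mean difference was 1.18 ± 0.31 (SD, n = 4 lines, limma adjusted p = 0.102), and unlike most proteases it was about as large in K562, 1.42, as in HL60, 1.47. SMPD1, the acid sphingomyelinase, had 7.47, 7.15, 6.95 and 6.41 in treated cells and 5.40, 7.37, 5.60 and 6.57 in controls. It was higher only in HL60 and SKM1, by 2.07 and 1.35, its HL60 control lay at background, and its mean difference of 0.76 was 0.32 without HL60.

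ARSA, which removes sulfate from sulfatide, had 5.20, 5.41, 6.44 and 4.44 in treated HL60, MDSL, SKM1 and K562 cells, against 4.34, 5.15, 4.45 and 4.06 in controls. It lay at or under background on 8 of 10 arrays, and its mean difference was 0.50 without SKM1, against 0.87 over the 4 lines. PPT1, which removes fatty acids from proteins, was lower in 4 of 4 lines by -0.35 ± 0.29 (SD, n = 4 lines, limma adjusted p = 0.375), with 13.63, 13.59, 13.27 and 13.67 in treated HL60, MDSL, SKM1 and K562 cells and 14.14, 13.70, 13.94 and 13.77 in controls. LIPA, which frees cholesterol and fatty acids from their esters, was nearly silent in K562, at 4.73 in treated and 4.67 in control cells, both under background. In treated HL60, MDSL and SKM1 it had 9.01, 12.19 and 10.63, against 10.31, 11.65 and 10.91 in controls, a difference of -1.30 in HL60 and 0.53 in MDSL.

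Of the 3 measured activators, all were higher by the mean (47.6% of all genes) and 0 passed the test. PSAP, the precursor of the saposins that present lipids to hydrolases, had 14.61, 14.83, 13.55 and 13.68 in treated HL60, MDSL, SKM1 and K562 cells, against 12.94, 13.93, 11.91 and 12.88 in controls. Its mean difference was 1.25 ± 0.47 (SD, n = 4 lines), or 2.38-fold (limma adjusted p = 0.114), and no line was under 0.80. GRN, progranulin, which binds PSAP and is cut into granulins in lysosomes, had 14.57, 12.89, 13.69 and 11.06 in treated cells and 13.37, 12.67, 12.51 and 10.52 in controls. GRN was higher in each line, by 0.78 ± 0.49 on average (SD, n = 4 lines, limma adjusted p = 0.164). GM2A, the GM2 activator, stayed between 5.47 and 5.62 in treated and 5.21 and 5.52 in control cells, close to background.

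Membrane proteins held the member that was lowest after OR21, CLN6, and a pair of responses led by HL60. CLN6, a membrane protein of the endoplasmic reticulum needed to send enzymes toward lysosomes, had 10.21, 9.64, 9.94 and 9.76 in treated HL60, MDSL, SKM1 and K562 cells, against 11.76, 11.85, 11.25 and 11.02 in controls. All 4 treated arrays lay below all 4 controls. The mean difference was -1.58 ± 0.44 (SD, n = 4 lines), with the smallest unadjusted p of any member, 0.000252, and an adjusted p of 0.102 in limma. CLN6 was the 1 member at least 2-fold lower in all 4 lines, as were 0.226% of all genes, and 0 members were at least 2-fold higher in all 4, as were 0.424% of all genes.

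MCOLN1, a lysosomal calcium channel, had 12.46, 11.67, 11.52 and 10.69 in treated HL60, MDSL, SKM1 and K562 cells and 9.82, 11.24, 10.86 and 10.52 in controls. HL60 differed by 2.64 and the other lines by 0.17 to 0.66 (mean 0.98 ± 1.13, SD, n = 4 lines, limma adjusted p = 0.272), and without HL60 the mean was 0.42. GPNMB, a glycoprotein of macrophages and pigment cells, had 9.50, 6.37, 5.98 and 6.17 in treated cells and 5.88, 6.05, 5.61 and 5.96 in controls. Its difference was 3.62 in HL60 and 0.21 to 0.37 elsewhere, where levels stayed at 5.61 to 6.37 (limma adjusted p = 0.357).

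NPC1, which exports cholesterol from lysosomes, stood out in K562 instead. It had 10.77, 9.94, 11.38 and 12.48 in treated HL60, MDSL, SKM1 and K562 cells and 10.37, 10.01, 11.13 and 11.10 in controls, a difference of 1.38 in K562 and -0.07 to 0.40 elsewhere. LAMP1 and LAMP2, the most abundant membrane glycoproteins of lysosomes, differed by -0.08 ± 0.75 and 0.31 ± 0.40 (SD, n = 4 lines each). LAMP1 was 0.75 higher in HL60 and -1.02 lower in K562. CLN3, the membrane protein lost in juvenile Batten disease, differed by 0.02 ± 0.20, and this turned to -0.09 when arrays were centred on their medians.

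The proton pump genes differed by line. ATP6V0D1, a subunit of the membrane sector, had 14.47, 13.63, 13.68 and 12.81 in treated HL60, MDSL, SKM1 and K562 cells and 12.93, 13.51, 13.13 and 13.07 in controls (mean difference 0.49 ± 0.77, SD, n = 4 lines, limma adjusted p = 0.441, and 0.14 without HL60). ATP6V1H, of the catalytic sector, had 9.30, 9.55, 8.90 and 8.56 in treated cells in the same line order and 8.88, 8.98, 8.89 and 8.70 in controls. The accessory subunit ATP6AP1 had 11.16, 11.41, 11.39 and 10.32 in treated cells and 10.70, 11.30, 10.69 and 10.76 in controls. Both differed by 0.21 on average, and ATP6AP1 by 0.04 without SKM1. All 3 were higher in HL60, MDSL and SKM1 and lower in K562, at -0.25, -0.15 and -0.44. TFEB itself was under background on 10 of 10 arrays, at 3.08 to 3.32 in treated and 3.02 to 3.19 in control cells, so its level was not measurable here.

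The members were then counted line by line. In treated HL60 cells 15 of 36 members were at least 2-fold higher (41.7%), where 10.2% of all genes were, and 3 were at least 2-fold lower, where 11.1% were: CLN6, LIPA and GLA. Of the 10 proteases, 8 were among the higher ones. Scaling to the spikes gave 10 higher and 5 lower members in HL60, where 796 and 6721 of the 17687 genes were. The median of all genes there moved to -0.81, against -0.05 on the deposited scale.

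SKM1 had 11 members at least 2-fold higher (7.1% of all genes) and CLN6 alone lower (4.47%). MDSL had 3 higher, namely CTSL, CTSD and CTSA (6.62% of all genes), and CLN6 lower (4.88%). K562 had 3 higher, CTSB, ASAH1 and NPC1 (5.05%), and 3 lower, CLN6, CTSC and LAMP1 (3.86%). The member medians were 0.80, 0.13, 0.46 and 0.08 for HL60, MDSL, SKM1 and K562, and the K562 median was -0.04 when arrays were centred on their medians. Under spike scaling the HL60 member median was 0.04, against -0.81 over all genes. SKM1 then had 12 members at least 2-fold higher (1396 of the 17687 genes) and a median of 0.52.

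The difference between the lines given 500 nM and those given 100 nM was tested as an interaction in limma. It called 0 members and 0 genes at an adjusted p under 0.05. At an unadjusted p under 0.05 it called 0 members, where 5.47% of all genes were called. The smallest p among members was that of CTSB, with a mean difference of 1.96 in HL60 and K562 and 1.00 in MDSL and SKM1 (adjusted p = 0.877). With 2 lines on each side, this does not show that the doses act alike.

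**Figure D3:**
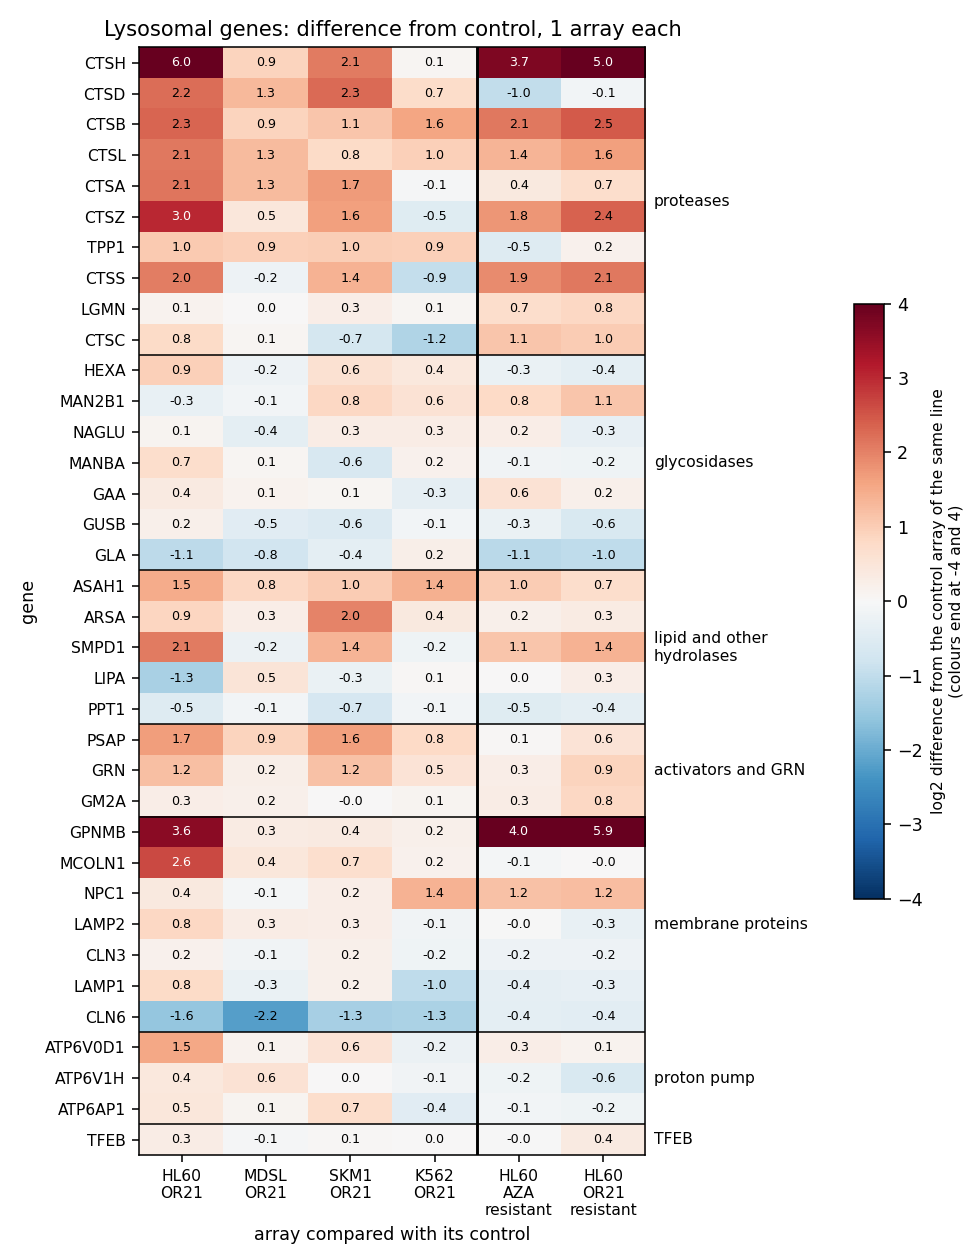
Log2 difference of each of 36 lysosomal genes (rows, grouped by role) from the control array of the same line, for 4 OR21-treated lines and 2 resistant HL60 derivatives (columns, 1 array each). Red is higher and blue lower than control. CLN6 is lower in all 4 treated lines (-2.21 to -1.26), and CTSH and GPNMB are high in HL60 and both derivatives.

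Markers of maturation also differed. Of 10 monocyte and macrophage markers, 9 were higher on average (47.6% of all genes), with a median of 0.50, and 0 passed the test. Their summed intensity was 323564, 68403, 208298 and 8986 in treated HL60, MDSL, SKM1 and K562 cells, against 220193, 45315, 174885 and 4802 in controls, but lysozyme, LYZ, made up 76.7% to 97.3% of each sum. Without LYZ the other 9 markers summed to 34470, 15148, 38736 and 639 in treated cells, against 5935, 7260, 40793 and 625 in controls. This sum was slightly lower in SKM1 and nearly level in K562. In SKM1 the brightest of the 9 was the antibody receptor FCGR1A, at 14.95 in treated and 15.16 in control cells, while ITGAM had 11.58 and 7.43. The median difference of the 10 markers was 0.50, 0.53, 0.43 and 0.16 for HL60, MDSL, SKM1 and K562. CD14, the endotoxin co-receptor, had 14.60 in treated and 7.64 in control HL60 cells, ITGAM, an integrin of mature myeloid cells, 9.90 and 5.98, and the scavenger receptor MRC1 was under background on both. The 4 measured primary granule genes had median differences of -2.77, -0.04, -0.82 and -0.21 for HL60, MDSL, SKM1 and K562. MPO alone differed by 4.49 in MDSL, at 13.11 in treated and 8.62 in control cells, and by -1.09 to -0.95 in the other lines. The 7 measured erythroid markers had median differences of -0.14, 1.27, -0.31 and 0.58 for HL60, MDSL, SKM1 and K562. In K562 the erythroid marker ALAS2 had 14.20 in treated and 8.07 in control cells and HBE1 15.96 and 13.59, while TFRC was lower, by -0.45. The part of these shifts in the lysosomal differences was not tested.

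The second question was how the resistant HL60 derivatives stood against parental HL60. Both were compared with the same single control array as OR21-treated HL60, so the 3 sets of differences share it. In the OR21 resistant derivative 10 of 36 members were at least 2-fold higher (7.69% of all genes) and 1 lower (4.27%), and in the AZA resistant derivative 9 were higher (7.04%) and 2 lower (5.11%). The member medians were 0.30 in the OR21 resistant and 0.23 in the AZA resistant derivative, against -0.07 and -0.02 over all genes.

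The cysteine cathepsins made up most of the higher genes. CTSH had 8.76 in the OR21 resistant, 7.46 in the AZA resistant and 9.72 in the OR21-treated cells, against 3.72 in parental HL60, which is at least 10.2-fold, 4.13-fold and 19.8-fold higher with the control set at background. CTSB had 14.99, 14.64 and 14.86 on these arrays, against 12.52 in the parental control. CTSS, at 14.35, 14.11 and 14.27 against 12.24, and CTSZ, at 12.14, 11.55 and 12.81 against 9.78, were likewise higher on all 3. CTSL differed by 1.63 in the OR21 resistant and 1.37 in the AZA resistant cells, and CTSC by 1.02 and 1.11.

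Several other members had unlike values in the derivatives and the treated cells. CTSD had 12.76 in the OR21 resistant and 11.87 in the AZA resistant cells, both under the 12.87 of parental HL60, whereas treated cells had 15.10. MCOLN1 had 9.81 in the OR21 resistant and 9.72 in the AZA resistant cells, against 9.82 in parental and 12.46 in treated ones. CLN6 differed by -0.42 and -0.40 in the derivatives and by -1.55 in treated cells. NPC1 was higher in both derivatives, by 1.22 and 1.17, and by 0.40 in treated cells. GLA was alike on all 3 arrays, at -1.01 and -1.07 in the derivatives and -1.05 in treated cells.

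GPNMB was also high in both derivatives. It had 11.75 in OR21 resistant, 9.87 in AZA resistant and 9.50 in OR21-treated cells, against 5.88 in the parental control and 5.61 to 6.05 in control MDSL, SKM1 and K562 cells. Melanocyte markers, another setting in which GPNMB is known, were low: of 4 measured, PMEL, TYR and TYRP1 lay under background in both derivatives, and MLANA stood at 5.63 and 5.61. The 6 osteoclast markers had median differences of 0.31 in OR21 resistant and 0.13 in AZA resistant cells. Among them TNFRSF11A had 6.94 in OR21 resistant, 5.84 in AZA resistant and 5.52 in parental cells. CALCR, under background on 10 of 10 arrays, differed by -0.32 and -0.06.

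Myeloid markers differed in the derivatives too. The monocyte and macrophage markers had a median difference of 0.94 in the OR21 resistant and 0.67 in the AZA resistant cells, and the primary granule genes -1.75 and -1.74. CD14 differed by 3.07 and 0.37, CSF1R, a growth factor receptor of macrophages, by 2.48 and 1.67, and FCGR1A, an antibody receptor, by 2.95 and 3.31. The granule genes PRTN3 and AZU1 differed by -3.88 and -2.58 in the OR21 resistant and by -4.15 and -2.52 in the AZA resistant cells. Their part in the lysosomal differences was not tested.

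Set directly against each other, the OR21 resistant cells exceeded the AZA resistant cells at least 2-fold for GPNMB, by 1.88, and CTSH, by 1.30 (2 of 36 members, 0.678% of all genes). CTSD was 0.89 higher, and 0 members were at least 2-fold lower (0.888% of all genes). With 1 array of each, no error can be given.

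**Figure D4:**
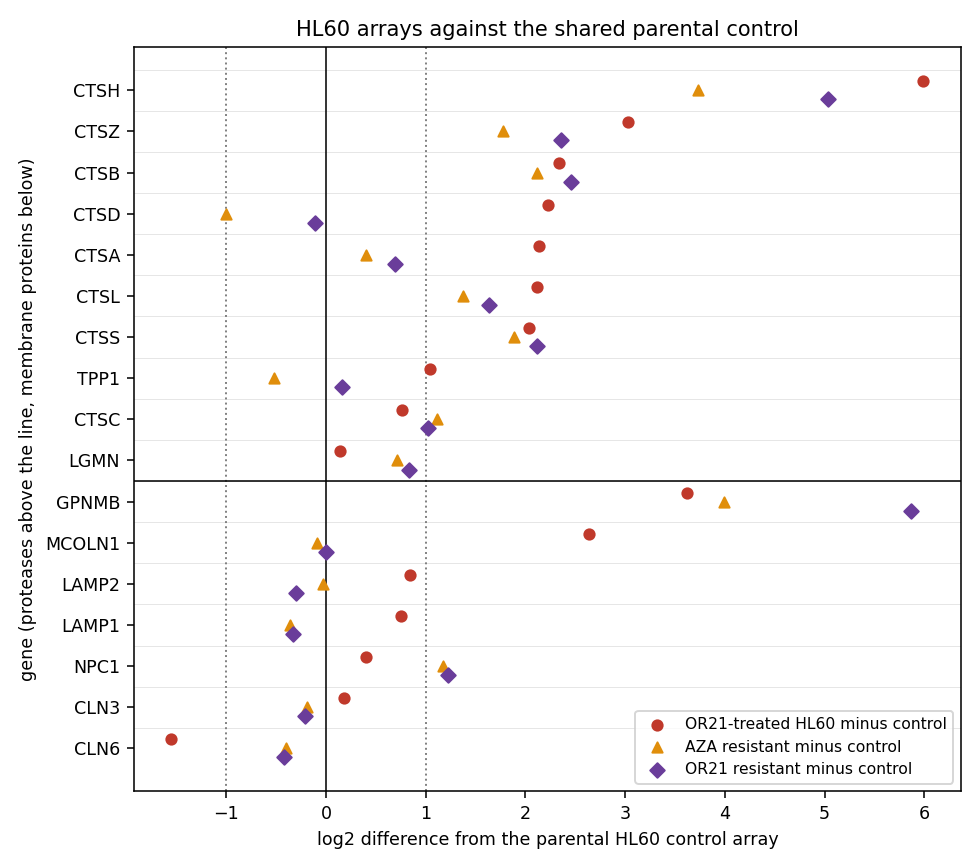
Log2 difference from the parental HL60 control array (horizontal axis) for 10 proteases above the line and 7 membrane proteins below it, in OR21-treated cells (circles), AZA resistant cells (triangles) and OR21 resistant cells (diamonds), 1 array each; dotted lines mark 2-fold. CTSH, CTSZ, CTSB, CTSL, CTSS and GPNMB lie to the right of 1 on all 3. CTSA, CTSD, TPP1 and MCOLN1 do so only in treated cells, and CTSC and NPC1 only in both derivatives.

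Before treatment the lines already differed in their lysosomal genes. Control MDSL cells had HEXA at 14.24, against 11.29 to 12.00 in the other controls, and CTSA at 15.59, against 11.70 to 13.13. Control K562 cells were lowest in CTSD (9.33, against 10.36 to 12.87), CTSS (8.68, against 12.24 to 13.59), MAN2B1 (8.31, against 10.59 to 12.04) and GRN (10.52, against 12.51 to 13.37). They were highest in CTSL and CTSH. Other members were nearly level across the controls, such as CLN3 at 10.15 to 10.30 and ATP6V1H at 8.70 to 8.98.

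Lysosomal genes outside the 40 were read from further lists, beside the 47.6% of all genes that were higher by the mean of the lines. Of 26 measured further hydrolases, 20 were higher and 6 lower by the mean of the lines (median 0.46), with 0 past the test. The smallest p values were those of IDS, an enzyme of heparan and dermatan sulfate breakdown, at 1.44 ± 0.88 (SD, n = 4 lines), GALC, the galactosylceramidase, at 1.25 ± 0.78, and the carboxypeptidase SCPEP1 at 1.85 ± 1.29. SCPEP1 was also higher by 2.74 in the OR21 resistant and 2.69 in the AZA resistant cells. Of 26 further membrane genes, 21 were higher (median 0.51, 0 past the test), led by CD68 at 2.11 ± 1.16, LAPTM4A at 1.12 ± 0.48 and SIDT2 at 1.29 ± 0.64.

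The pump and the delivery machinery were counted in the same way, beside the same 47.6% of all genes. Of 16 further proton pump genes, 11 were higher, with a median of 0.21 over the lines, 0.53 in MDSL and -0.11 in K562, and 0 past the test. ATP6AP2 and ATP6V1E1 stood at 0.63 ± 0.34 and 0.76 ± 0.54 (SD, n = 4 lines). Of 13 delivery genes, 9 were higher (median 0.16, 0 past the test). IGF2R, the large mannose 6-phosphate receptor that brings hydrolases to lysosomes, had differences of 2.63, 0.71, 1.17 and -0.18 for HL60, MDSL, SKM1 and K562. Of 17 genes of the TFEB family and the mTORC1 pathway that holds it in check, 10 were higher (median 0.26, 0 past the test), with FLCN at 0.71 ± 0.38 and FNIP1 at 0.44 ± 0.16.

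Autophagy genes, which feed lysosomes with cell contents, were higher by the mean in 14 of 18 (47.6% of all genes), with a median of 0.53. Of the 18, 11 were higher in 4 of 4 lines (12.2% of all genes), and 0 passed the test. GABARAPL1, which coats forming autophagosomes, had 12.03, 8.60, 8.73 and 10.13 in treated HL60, MDSL, SKM1 and K562 cells, against 8.61, 7.41, 6.17 and 7.58 in controls. The mean difference was 2.43 ± 0.92 (SD, n = 4 lines, limma adjusted p = 0.102), with K562 as high as SKM1. MAP1LC3B, the LC3 protein, differed by 1.46 ± 0.37 and the cargo receptor NBR1 by 1.20 ± 0.26 (adjusted p = 0.102 for both). In the OR21 resistant and AZA resistant derivatives the same genes were lower than parental HL60, by -0.76 and -0.88 for GABARAPL1 and -0.94 and -1.12 for MAP1LC3B.

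Of 6 cathepsin inhibitors, 3 were higher by the mean (47.6% of all genes) and 3 lower (median 0.22, 0 past the test). CST3, cystatin C, differed by 0.89 ± 0.77 (SD, n = 4 lines). CST7, cystatin F, which restrains CTSC and other cysteine cathepsins inside the cell, had 7.66 in OR21 resistant, 8.40 in AZA resistant and 12.84 in OR21-treated HL60 cells, against 13.78 in the parental control. In treated SKM1 cells CST7 was instead 3.12 higher than in their control.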

How the data were processed

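The authors deposited linear intensity values per probe set, from 4.25 to 405294. Their background correction and normalization are not given in the sources used here. Lower and upper quartiles differed little between arrays (4.82 to 4.93 and 9.62 to 9.79), so the values were taken as normalized and converted to log2 without a pseudocount. Of 24351 deposited rows, 17709 had 1 symbol in the platform annotation, 0 had several and 6642 were not listed. For 20 genes with several probe sets, the one with the highest mean was kept, leaving 17687 genes. 0 columns belonged to no sample.

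The OR21 response was fitted over all genes in limma 3.58.1 (R 4.3.3) with the cell line as a block, since treated and control arrays came from the same line, and Benjamini-Hochberg adjustment at 0.05, two-sided. The dose difference was an interaction. Its p-values rest on the spread between 4 lines, which may be biological or technical. Single comparisons have no test. Array number limits the precision. Minimum folds set a control at its array's background median. The steps were tested on simulated data.

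Members and lists were chosen with earlier results of these data known. All members are accounted for. Treated and control levels are given in full for up to 4 members of each role with the largest mean differences, and for TPP1 and LIPA, added after their values were seen, and each further list names up to 3 genes of smallest p. The promoters printed, MLANA, MPO, CD14, CSF1R, FCGR1A, ALAS2, TNFRSF11A and NCAM1 were chosen after their values were seen. Alternatives were quantile normalization, median centring, spike scaling, no line block, an intensity trend, no dim genes (under the 30th percentile), probe set means and leaving out each line.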

Additional observations from a re-analysis of the deposited data

Results flagged for a closer look

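GPNMB differed by 3.62 log2 between OR21-treated and control HL60 cells and by 0.21 to 0.37 in MDSL, SKM1 and K562, so that HL60 stood apart from the other 3 lines by 0.954 of the whole range. It was the 1 gene of 36 marked in this way, and chance alone marks about 1 in 20 such groups of 4.
The hybridisation spikes of the treated HL60 array averaged 11.71 log2, against 10.94 in its control, and its polyA spikes 8.06, against 7.34. The part of these spike differences in the GPNMB difference was not tested.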

How the results depend on the processing

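Of the counts of members called over the 4 lines, only spike scaling changed any, to 1 higher (CTSD, 1.49, adjusted p from 0.0423 to 0.985 over its alternatives) and 1 lower (CLN6, -1.72, adjusted p from 0.0207 to 0.646). It also gave 5 members at least 2-fold lower in HL60 (6721 of the 17687 genes) and 5 higher in K562 (1154 genes). Quantile normalization left 0 members at least 2-fold lower in AZA resistant cells, against 2, and 1 lower in every line, against 2. These last counts per line were an alternative added after seeing the data. Without 1 line, members higher in every remaining line numbered 12 to 19 and the median difference was 0.14 to 0.49. The fit with no replicate block called 0 members, as did the blocked one, with the median at 0.38, and called 1 gene in all, against 7 with the block. Differences that turned sign were near 0. Under median centring these were GAA -0.05, NAGLU -0.03, MANBA -0.03, CLN3 -0.09 and TFEB -0.03. Under spike scaling they were LGMN -0.00, GAA -0.08, NAGLU -0.05, MANBA -0.05, CLN3 -0.12 and TFEB -0.05, and under quantile normalization NAGLU -0.02. Leaving out 1 line gave ranges of -0.61 to 0.04 for CTSC, -0.04 to 0.19 for GAA, -0.12 to 0.32 for MANBA, -0.51 to 0.11 for LIPA, -0.36 to 0.23 for LAMP1 and -0.04 to 0.08 for CLN3. Leaving out 1 line moved the mean difference by over 1.5 times for 25 of 36 members, 20 of them without HL60, where CTSS was 0.08, CTSZ 0.54, HEXA 0.28, GLA -0.32, LAMP2 0.14 and GPNMB 0.30; without K562 NPC1 was 0.19. Among all genes in HL60, those at least 2-fold higher and lower numbered 1802 and 1962, against 1500 and 2510 under median centring and 796 and 6721 under spike scaling. The causes were not tested. Signal near background limits ARSA, GM2A, TFEB and the HL60 control of CTSH and SMPD1.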

Other observations

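Markers outside the lysosome also differed between arrays, with no test for single lines. NCAM1, an adhesion molecule, had 13.11 log2 in OR21 resistant and 13.89 in AZA resistant cells, against 8.77 in parental HL60, and 10.57 in treated against 12.26 in control SKM1 cells. The matrix protease MMP9 had 15.25 in treated HL60 and 13.28 in treated SKM1 cells, against 5.94 and 6.75 in their controls. It was level in MDSL, at 6.04 on both arrays, and had 4.96 in treated and 5.54 in control K562 cells. The other 5 osteoclast markers had mean differences from -0.18 for CALCR to 0.66 ± 0.45 (SD, n = 4 lines) for NFATC1. CALCR lay at or under background on 10 of 10 arrays and OCSTAMP on 9. HDC, which makes histamine, differed by 6.30 in SKM1 and 2.59 in HL60. Over the 4 lines 0 genes passed the test in the marker lists of erythroid (6 of 7 higher by the mean), progenitor (4 of 6), mast cell (4 of 4), fibroblast (4 of 5), lymphocyte (5 of 6) and melanocyte (1 of 4) genes. Of all genes, 47.6% were higher by the mean. Several of these markers lay at or under background on most arrays, such as LUM on 10 of 10, PDGFRB on 9, HPGDS on 8 and CD2 on 7. The fibroblast median was 0.15.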
